A study of Homo sapiens with 12 samples.

Results

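The liver X receptors and the genes of cholesterol efflux were examined for occupancy by SREBP2 and RORγ and for the acetylation mark H3K27ac. The 7 genes were NR1H2 and NR1H3, which encode the receptors LXRβ and LXRα, the transporters ABCA1 and ABCG1, the lipoprotein component APOE, the esterifying enzyme SOAT1 and the oxysterol-forming enzyme CH25H. They were taken by name, out of 20098 protein-coding genes on chromosomes 1 to 22 and X. A region counted for a gene's promoter when it overlapped a window that began 1000 bp before an annotated transcript start and ended 100 bp after it. Regions from 10 kb upstream to 10 kb downstream of each gene were also catalogued.

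Chromatin of HCC70, an established cell line of triple-negative breast cancer, was immunoprecipitated from cells given either vehicle or the RORγ antagonist XY018 for 24 h. XY018 is at 5 µM in the sample labels, whereas the study's methods name a lower dose. One library was made for each of SREBP2, RORγ and H3K27ac under each treatment, so 6 libraries were compared, and 6 input samples were not analysed here. All groups were of the same line and treatment time. With 1 library in each group, no difference between treatments has a replicate check and no p-value was computed. The intervals given are 95% intervals that cover counting error only.

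Liver X receptors are nuclear receptors that bind DNA as partners of the retinoid X receptors and are switched on by oxysterols, the oxidised forms of cholesterol. They are known for raising the genes that remove cholesterol from the cell, whereas SREBP2 is known for raising the genes that make cholesterol or take it up. RORγ is a nuclear receptor of another family, whose element holds a single AGGTCA-like word rather than a repeat. H3K27ac is found at active promoters and enhancers.

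Values are numbers of sequenced fragments stacked at the summit, the highest point of a region, recovered from the deposited fold enrichment and p-value of each peak. Libraries were compared after each number was divided by the genome-wide background of its library, the fragments expected at any one base. That background ran from 0.712 to 1.21 fragments, and the depth from 3.65 to 6.16 tags per kb. The weakest regions listed held 3 to 5 fragments, so a site without a region is not shown to be empty. The H3K27ac lists are parts of longer ones, and a missing H3K27ac region may have been called but not listed. As a check of the label, all 6 of 6 epithelial genes examined had an H3K27ac promoter region in both H3K27ac libraries. Of 6 leukocyte genes, 2 had one with vehicle and 3 with XY018.

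The sequences on which the results turn are shown first, 5′ to 3′ along the gene. At the ABCA1 promoter the capitals mark an E-box, CACGTG, and further on an LXR element, which is a direct repeat of AGGTCA with 4 bases between and at most 1 mismatch in each copy. The other windows reach 100 bp to either side of the SREBP2 summit with vehicle. They were chosen because each lay under regions in all 6 libraries, and they contained none of the motifs searched.
ABCA1 promoter, RefSeq sequence located at chr9:107690387-107690686 of GRCh37 (hg19), minus strand: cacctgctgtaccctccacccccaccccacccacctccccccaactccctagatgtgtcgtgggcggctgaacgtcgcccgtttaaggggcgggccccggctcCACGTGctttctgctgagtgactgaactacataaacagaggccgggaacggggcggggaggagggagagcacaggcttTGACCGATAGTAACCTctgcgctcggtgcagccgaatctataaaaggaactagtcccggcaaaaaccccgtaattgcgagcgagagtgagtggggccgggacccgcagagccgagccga
ABCG1 intronic site, chr21:43655052-43655252, plus strand: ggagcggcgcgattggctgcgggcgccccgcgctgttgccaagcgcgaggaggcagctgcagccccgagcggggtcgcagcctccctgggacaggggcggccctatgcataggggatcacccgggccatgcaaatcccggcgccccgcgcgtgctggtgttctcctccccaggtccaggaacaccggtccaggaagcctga
CH25H upstream site, chr10:90967711-90967911, minus strand: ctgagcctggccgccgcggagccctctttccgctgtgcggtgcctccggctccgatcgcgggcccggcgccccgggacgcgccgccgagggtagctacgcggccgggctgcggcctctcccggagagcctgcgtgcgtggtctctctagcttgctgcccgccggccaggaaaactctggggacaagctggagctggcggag

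Motifs were searched on both strands in 11 RefSeq promoters of 300 bases, from 250 bases before to 50 after the start. These covered 6 of the 7 genes, all but ABCG1, and each matched GRCh37 at 1 place in its gene. The LXR element was present in 1 of the 11, that of ABCA1, and in 1.38% of 35116 RefSeq promoters. It read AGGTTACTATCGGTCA on the opposite strand, at chr9:107690490-107690505. The E-box of ABCA1, at chr9:107690578-107690583, was also the only one in the 11 promoters, beside 7.26% of all promoters. Neither the sterol regulatory element, TCACNCCAC, nor the RORE core was present in them, and all promoters held these in 1.13% and 0.675% of cases.

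The LXR element of ABCA1 lay inside the H3K27ac region of both treatments and outside the SREBP2 and RORγ regions. Its middle was 239 bp from the nearest SREBP2 promoter summit with vehicle and 252 bp with XY018. For RORγ those distances were 216 and 214 bp. The E-box overlapped the SREBP2 region with vehicle but not that with XY018, and the SREBP2 summits were 156 and 169 bp from its middle.

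Promoter regions were present for most of the 7 genes in every library. SREBP2 regions lay on 6 of the 7 promoters with vehicle and on 5 with XY018, beside 70.6% and 62.7% of all protein-coding genes. RORγ regions lay on 6 and 5, beside 62.6% and 61.5%, and H3K27ac regions on 6 and 6, beside 66.8% and 68%. ABCA1, ABCG1, NR1H2, SOAT1 and CH25H had a promoter region in all 6 libraries. NR1H3 lacked any for RORγ, and APOE lacked any for SREBP2 and H3K27ac.

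**Figure D1:**
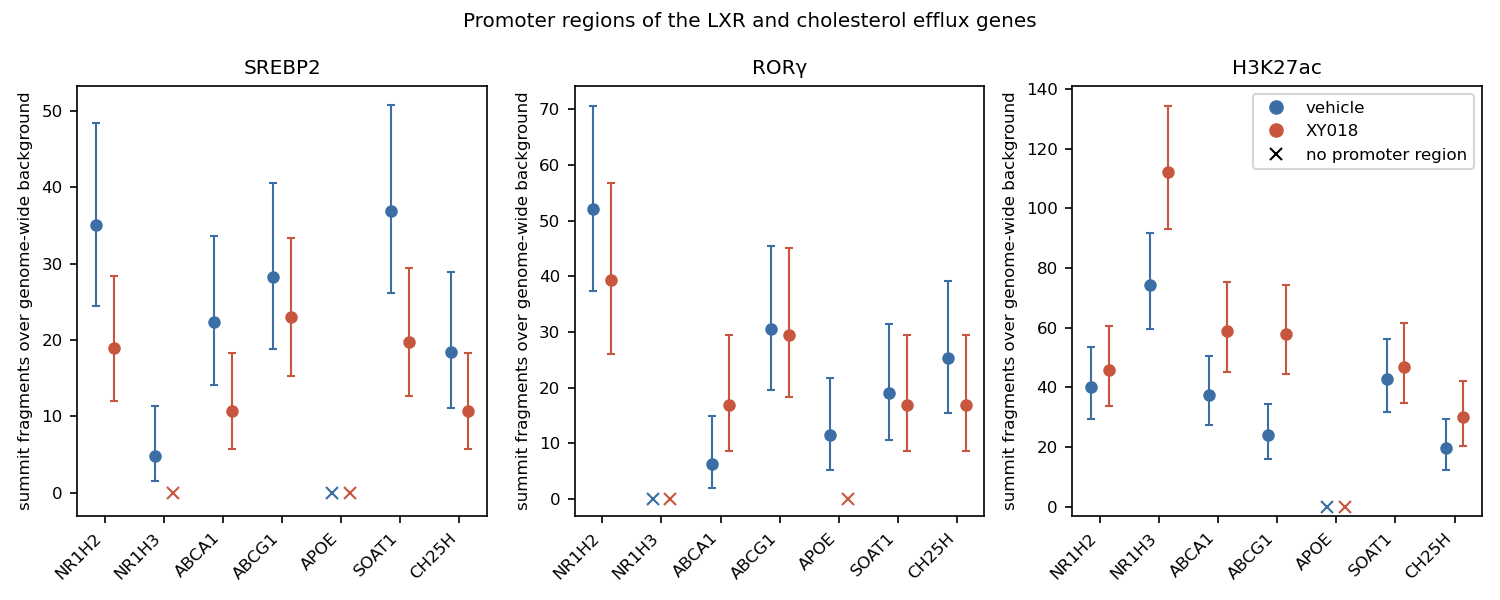
Summit fragments over the genome-wide background (y axis) at the promoter region of each gene (x axis), in 3 panels for the 3 antibodies. Points are single libraries, bars are exact Poisson 95% intervals, and crosses drawn at 0 mark promoters without a region. Regions are picked for each antibody separately, so at NR1H2 the 3 antibodies are read at different places. The NR1H3 region for H3K27ac is the one shared with the MADD promoter. On this scale SREBP2 is lower with XY018 at each of the 5 promoters marked under both treatments, and H3K27ac is higher at each of 6, although ABCG1 for SREBP2 and NR1H2 and SOAT1 for H3K27ac turn when set against the median promoter.

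NR1H2, the LXR found in most tissues, has 11 annotated start positions, the first of them 46804 bp upstream of the canonical one. At the canonical start, chr19:50879714, the SREBP2 summit held 19 fragments with vehicle and 10 with XY018. RORγ gave no region there with vehicle and regions of 5 and 4 fragments with XY018, while H3K27ac held 47 and 49. H3K27ac was therefore strong at the main start, where the listed RORγ regions were weak.
The strongest SREBP2 promoter region of NR1H2 with vehicle had its summit 1912 bp further in. The site, spanning the regions of all libraries as for the coordinates below, was chr19:50880754-50882294, over a coding exon. It held 36 fragments with vehicle and 23 with XY018, a ratio of 0.541 (0.306 to 0.938) after scaling. RORγ held 28 and 35 fragments at the same place, a ratio of 1.38 (0.817 to 2.36), and H3K27ac 24 and 14, a ratio of 0.639 (0.306 to 1.29). Of the 16 sites marked in all 6 libraries near the 7 genes, 8 belonged to NR1H2, and this was one of the few where H3K27ac was lower with XY018.

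Another start of NR1H2, at chr19:50861638-50862156, had 33 and 20 SREBP2 fragments and 17 and 12 RORγ fragments. Its H3K27ac was weak, at 12 and 8 fragments. Towards the end of the gene, at chr19:50885017-50886214, SREBP2 held 39 and 24 fragments and RORγ 34 and 35, and H3K27ac held 23 with vehicle and had no region with XY018. Just past the gene, at the promoter of POLD1, a DNA polymerase subunit, H3K27ac reached 143 and 154 fragments.

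NR1H3, the LXR of liver, gut and macrophages, was marked mainly by H3K27ac. At its canonical start, in chr11:47278793-47280225, H3K27ac held 39 fragments with vehicle and 68 with XY018, a ratio of 1.91 (1.27 to 2.91). At the upstream start near ACP2, a lysosomal phosphatase gene, it held 29 fragments with vehicle and at most 19 in any of 3 regions with XY018, a ratio of 0.718 (0.38 to 1.32). The summits compared lay 518 bp apart, and the XY018 region with its summit nearest to that of vehicle held 16 fragments. The starts of NR1H3 thus differed in the direction of their ratios, although the interval of the second one included 1. SREBP2 had 5 fragments at the upstream start with vehicle and no region with XY018.
The region that overlapped the most downstream NR1H3 starts reached the promoter of MADD, which begins beyond the gene. H3K27ac held 87 fragments with vehicle and 120 with XY018 there, a ratio of 1.51 (1.14 to 2.02). SREBP2 and RORγ regions lay on the MADD side and not on a start of NR1H3, with 35 and 28 SREBP2 fragments and 25 and 18 RORγ fragments. This was the only NR1H3 site with regions in all 6 libraries.

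**Figure D2:**
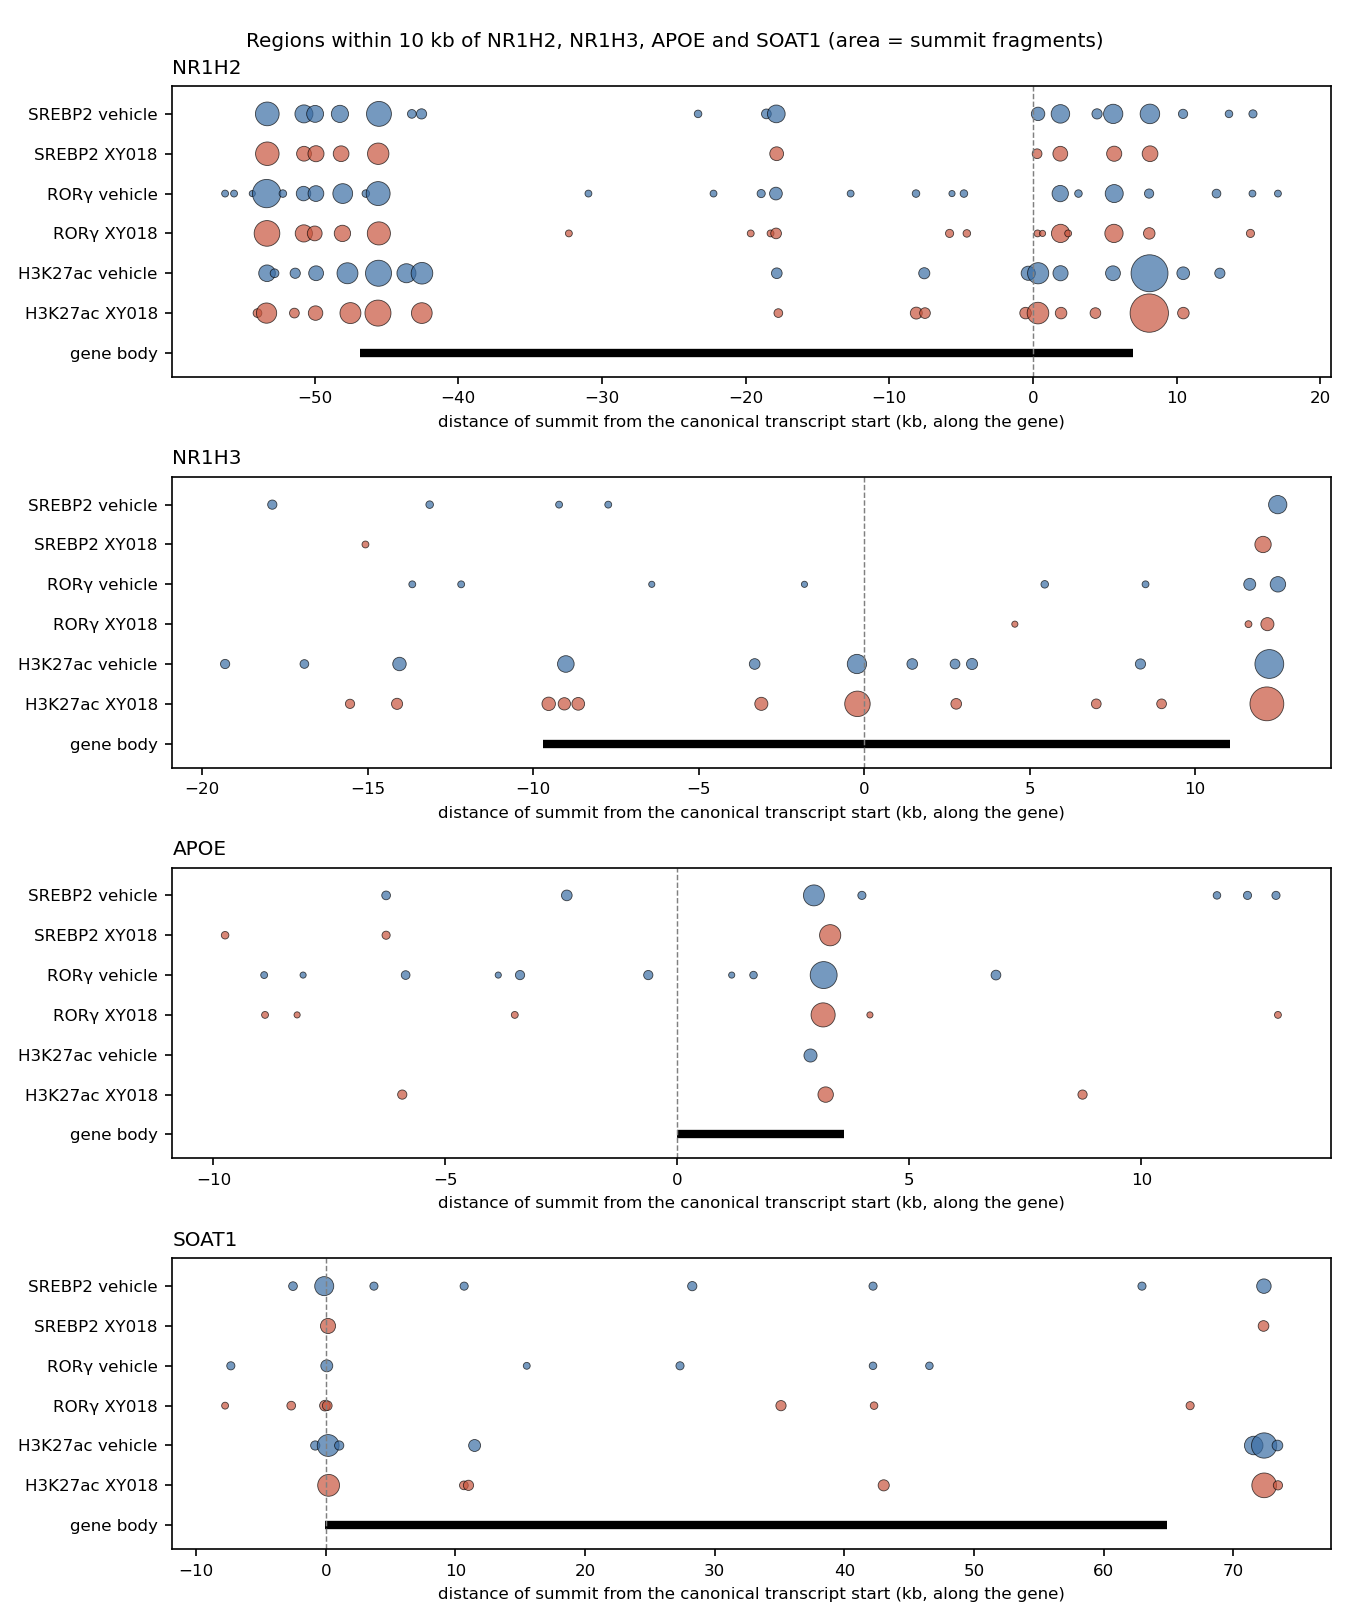
Distance of each region's summit from the canonical transcript start in kb (x axis) in each of the 6 libraries (rows) around NR1H2, NR1H3, APOE and SOAT1. The area of a point is proportional to the summit fragments, and the black bar is the gene. NR1H2 carries regions of all 3 antibodies at both ends, NR1H3 mainly H3K27ac at its starts, and APOE a site at its 3′ end.

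ABCA1 exports cholesterol and phospholipid to lipid-poor apolipoproteins. At its promoter the SREBP2 summit held 23 fragments with vehicle and 13 with XY018, a ratio of 0.478 (0.223 to 0.985). RORγ held 5 and 12, a ratio of 2.65 with an interval of 0.87 to 9.62. H3K27ac held 44 and 63, a ratio of 1.57 (1.05 to 2.36). SREBP2 was thus lower, H3K27ac higher, and the interval of RORγ included 1. The RORγ ratio exceeded that of 99.6% of 11311 promoters with RORγ regions under both treatments, but it rested on the fewest fragments of any of the 7 genes. Its region with vehicle had a −log10 q of 1.12 and did not reach a q of 0.01.
Summits of SREBP2 and RORγ lay upstream of the ABCA1 start, at 300 and 277 bp with vehicle and 313 and 275 bp with XY018. Those of H3K27ac lay 509 and 519 bp inside the gene. A further SREBP2 region with vehicle, at chr9:107689800-107690065 just inside the gene, held 18 fragments and had no counterpart with XY018. Another SREBP2 region, with its summit 1458 bp inside the gene, held 9 fragments with vehicle and 10 with XY018.

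Within an ABCA1 intron, 53308 bp from the start by the SREBP2 summit with vehicle, regions of all 6 libraries coincided, with summits within 86 bp of each other. SREBP2 held 17 fragments with vehicle and 13 with XY018, RORγ 16 and 12, and H3K27ac 16 and 33. The H3K27ac ratio was 2.26 (1.21 to 4.4), larger than at the ABCA1 promoter, although the intervals overlapped. The sequence is a GC-rich repeat. Of its 170 words of 32 bases, 158 occurred more than once in GRCh37, against none of 170 at each of the other 15 sites marked in all 6 libraries. Its part in the counts was not tested.

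ABCG1, which passes cholesterol to mature high-density lipoprotein, had its main promoter at the canonical start, in chr21:43638824-43640211. SREBP2 held 29 fragments there with vehicle and 28 with XY018, a ratio of 0.817 (0.468 to 1.42). RORγ held 24 and 21, a ratio of 0.968 (0.512 to 1.81). H3K27ac held 28 and 62, a ratio of 2.43 (1.53 to 3.94). The intervals of both factors included 1, and that of H3K27ac excluded it. The H3K27ac ratio exceeded that of 99.2% of 12881 promoters, and the SREBP2 ratio that of 89.6% of 12337.
An intronic site, with its SREBP2 summit 15902 bp from that start with vehicle, was also marked in all 6 libraries. SREBP2 held 21 fragments with vehicle and 15 with XY018, RORγ 13 and 11, and H3K27ac 36 and 53, an H3K27ac ratio of 1.61 (1.04 to 2.54). Further along, at chr21:43693320-43694170, SREBP2 held 35 and 23, RORγ 17 and 26, and H3K27ac held 22 with vehicle and had no region with XY018. At this exonic site an H3K27ac region was thus listed with vehicle only. Near the end of the gene, SREBP2 held 23 and 9 fragments at a coding exon, a ratio of 0.331 (0.135 to 0.743), with RORγ at 10 and 9 and no H3K27ac region.

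H3K27ac regions within 10 kb of ABCG1 numbered 7 with vehicle and 16 with XY018. With XY018, 7 separate H3K27ac regions of 8 to 15 fragments stood upstream of the first annotated start, where none was listed with vehicle. SREBP2 regions at ABCG1 numbered 12 with vehicle and 8 with XY018, and RORγ regions 13 and 11. Over the whole lists, regions with XY018 were 111% of those with vehicle for H3K27ac, 59.3% for SREBP2 and 77.7% for RORγ. Fewer regions of both factors with XY018 were thus also the direction of the whole lists.

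**Figure D3:**
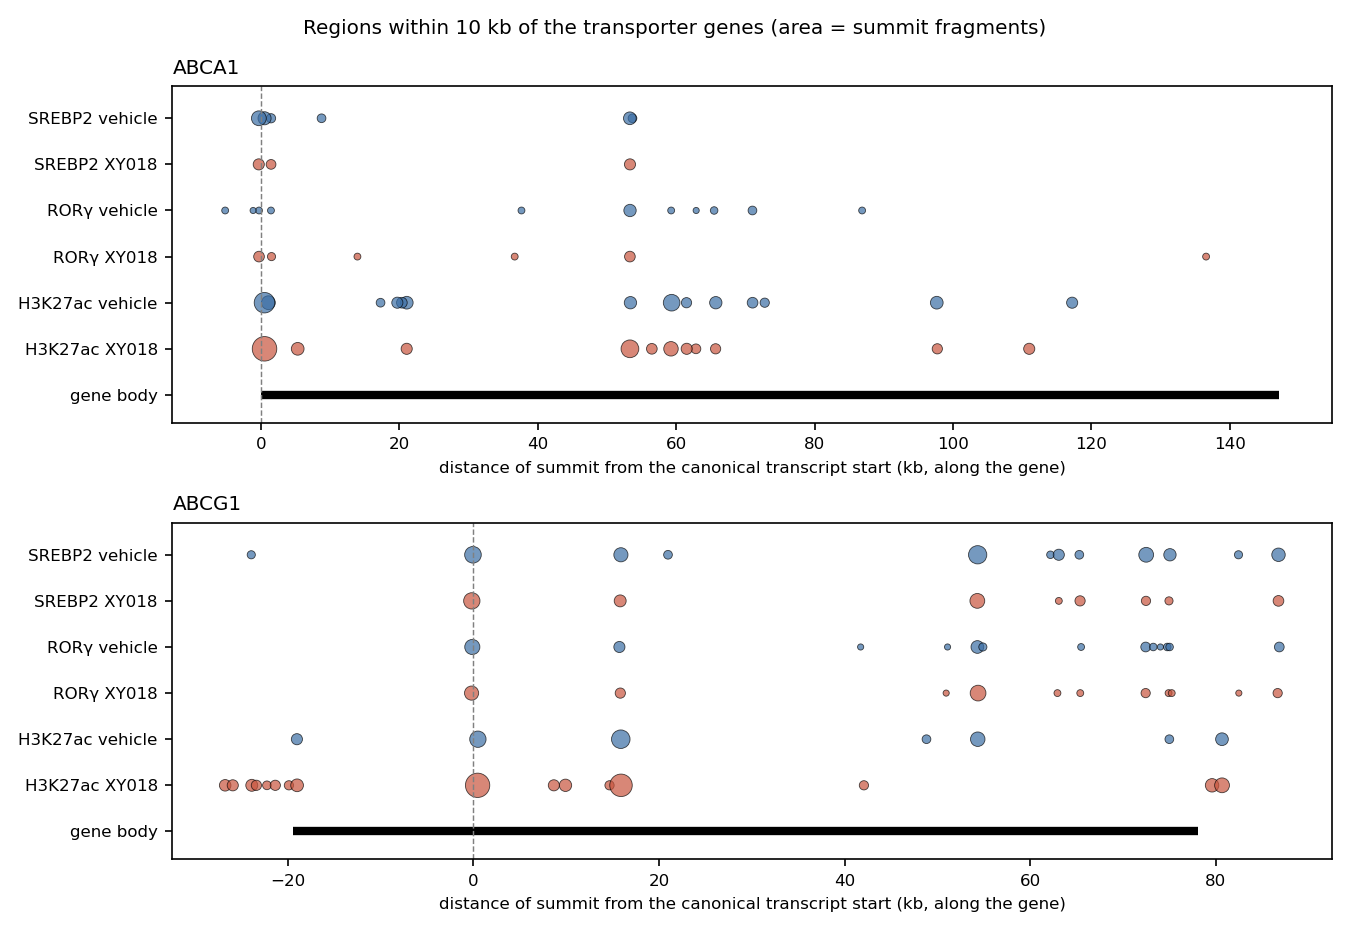
Distance of each region's summit from the canonical transcript start in kb (x axis) in each of the 6 libraries (rows) around ABCA1 and ABCG1. The area of a point is proportional to the summit fragments, and the black bar is the gene. ABCA1 shows 2 places with regions in all 6 libraries, and ABCG1 shows a row of H3K27ac regions upstream with XY018.

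APOE, the apolipoprotein that carries exported cholesterol, had almost no listed promoter regions. A single RORγ region of 9 fragments with vehicle, 628 bp upstream of the start, was the only promoter region in any library. The strong site of the gene was at its 3′ end, in chr19:45410998-45413405, over exon 4, the last exon. SREBP2 held 46 fragments there with vehicle and 47 with XY018, a ratio of 0.865 (0.564 to 1.33). RORγ held 76 and 61, a ratio of 0.888 (0.623 to 1.26), and H3K27ac 18 and 25, a ratio of 1.52 (0.798 to 2.96). Each of these intervals included 1. The RORγ summits of 76 and 61 fragments were higher than any RORγ promoter summit of the 7 genes. A site upstream of NR1H2 outside its promoter windows, chr19:50825602-50827586, was higher still, with 84 and 69 RORγ fragments.

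SOAT1, which esterifies cholesterol for storage, carried all 3 antibodies at its start, in chr1:179262618-179264575. SREBP2 held 38 fragments with vehicle and 24 with XY018, a ratio of 0.535 (0.307 to 0.915). RORγ held 15 and 12, a ratio of 0.885 (0.378 to 2.02), and H3K27ac held 50 and 50, a ratio of 1.1 (0.725 to 1.66). Only the SREBP2 interval excluded 1, on the background scale. Divided by tags per kb instead of background, the SREBP2 ratio was 0.592, for which no interval was computed.

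CH25H, the enzyme that makes the LXR ligand 25-hydroxycholesterol, had exactly 1 region in each of the 6 libraries, all at the same place. Their summits lay 730 to 779 bp upstream of the start of this single-exon gene. SREBP2 held 19 fragments with vehicle and 13 with XY018, a ratio of 0.579 (0.263 to 1.24). RORγ held 20 and 12, a ratio of 0.663 (0.296 to 1.43), and H3K27ac 23 and 32, a ratio of 1.52 (0.865 to 2.73). All intervals included 1, with both factors lower and acetylation higher with XY018. No region lay within the CH25H RefSeq promoter of 300 bases itself.

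Where regions under both treatments overlapped, the overlapping pair with the highest summed pileup stood for a promoter. With vehicle, the order of SREBP2 promoter summits was then SOAT1, NR1H2, ABCG1, ABCA1, CH25H and NR1H3, from 37 down to 4.86 times background. With XY018 it began with ABCG1, at 23.1. RORγ was highest at NR1H2 in both, in a region at its upstream starts, at 52.1 and 39.3 times background, and H3K27ac at the NR1H3 site shared with MADD, at 74.3 and 112. Neighbours in each order had overlapping Poisson intervals, except the NR1H3 site and the gene after it for H3K27ac, which did not overlap under either treatment.

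Across genes, SREBP2 was lower with XY018 at each of the 5 promoters with overlapping regions under both treatments. Their median ratio was 0.541, beside 0.621 for all 12337 promoters, of which 98% were lower. By more than 1.5-fold it was lower at 4 of 5, beside 62.5% of all promoters, and higher at none, beside 0.0567%. RORγ was lower by that much at 1 of 5, CH25H, beside 9.52%, and higher at 1, ABCA1, beside 7.36%. The median RORγ ratio was 0.885, beside 0.968 for all promoters. H3K27ac was lower by that much at none of 6, beside 3.07%, and higher at 4, namely ABCA1, ABCG1, NR1H3 and CH25H, beside 22.7%. Its median ratio was 1.52, beside 1.27 for all promoters. The direction at these genes was thus also the direction of most promoters in the same libraries. Pairs were picked for each antibody separately, and at NR1H2 the 3 antibodies were read at different places. At its SREBP2 site RORγ was higher, at 1.38, and H3K27ac lower, at 0.639, with intervals that included 1. The NR1H3 value for H3K27ac was that of the region shared with MADD. The canonical NR1H3 start had 1.91 and the upstream start 0.718, whose interval included 1. Set against the median promoter instead of the background, the direction turned for SREBP2 at ABCG1, to 1.32, and for H3K27ac at NR1H2 and SOAT1, to 0.897 and 0.86, while RORγ at ABCG1 came to 1. The other ratios of the counted pairs kept their direction, with SREBP2 at ABCA1 at 0.771 and H3K27ac at ABCG1 and ABCA1 at 1.91 and 1.23. On that scale SREBP2 passed 1.5-fold at none of 5, beside 7.7% of all promoters lower and 3.65% higher. RORγ passed it downwards at none of 5, beside 7.47%, and upwards at 1, ABCA1, beside 8.61%. H3K27ac passed it downwards at none of 6, beside 9.44%, and upwards at 1, ABCG1, beside 3.99%.

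**Figure D4:**
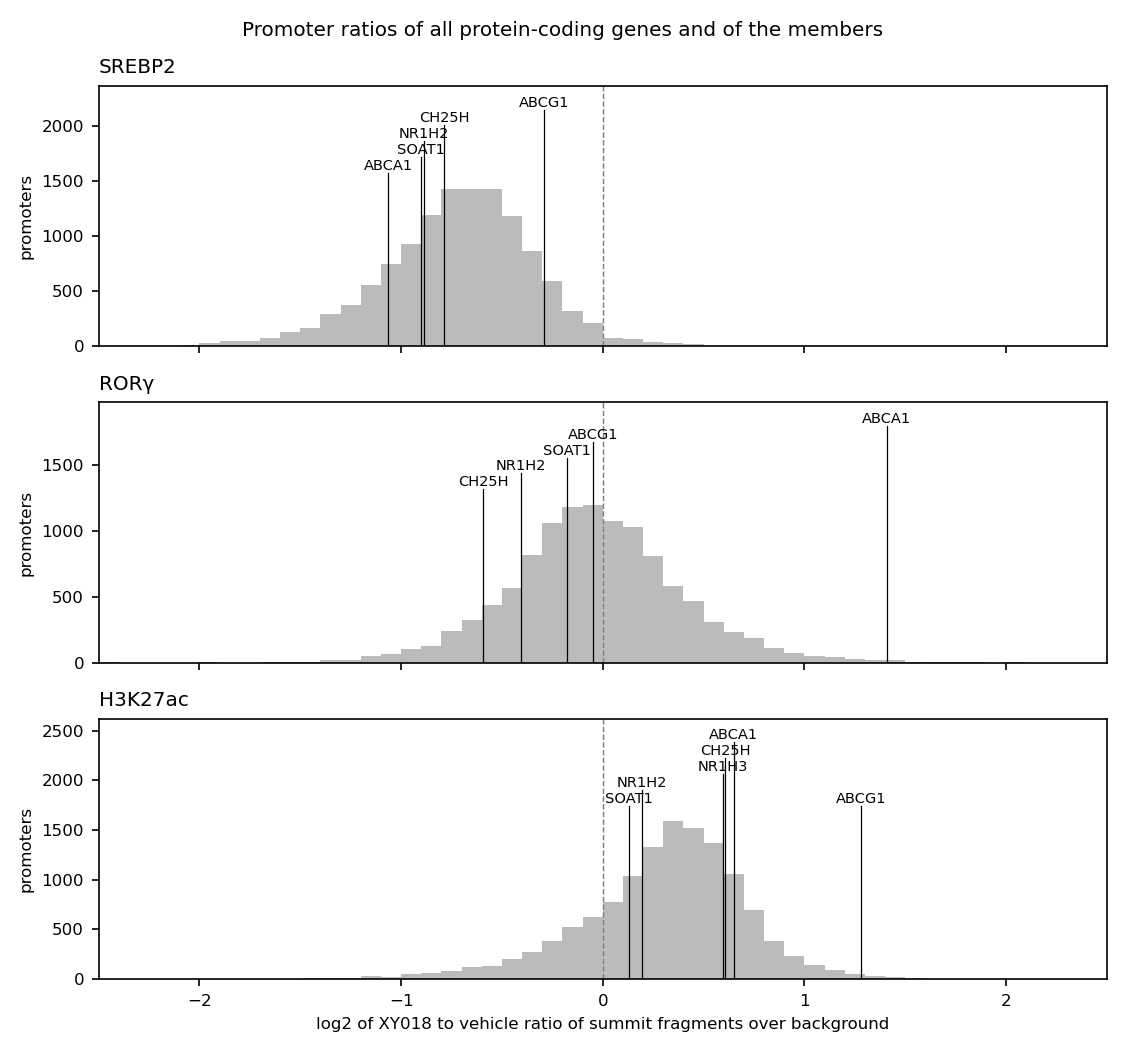
Number of protein-coding promoters (y axis) by the log2 ratio of XY018 to vehicle summit fragments over background (x axis), in 1 panel for each antibody. Lines mark the genes with regions under both treatments. Most lines lie inside the bulk of each distribution, and ABCG1 for H3K27ac and ABCA1 for RORγ lie towards its upper end.

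At the 16 sites with regions in all 6 libraries, SREBP2 was lower with XY018 at 16, with ratios from 0.478 to 0.865 and a median of 0.615. Over all 50520 overlapping pairs of SREBP2 regions the median was 0.597, and 94.6% were lower. A site's ratio used the highest summit of each library within it, whereas each of all pairs was of regions that overlapped. RORγ was lower at 11 and higher at 5, with a median of 0.922, beside 1.03 over all pairs. H3K27ac was higher at 13 and lower at 3, all at NR1H2 and 1 of them at 0.996, with a median of 1.35 beside 1.1 over all pairs. Over every site near these genes with regions under both treatments, whether or not the other antibodies marked it, H3K27ac was lower at 13 of 36, with a median of 1.07, beside 37.5% of all pairs. On the same count RORγ was lower at 15 of 29, with a median of 0.995, beside 47.3%, and SREBP2 at 25 of 26, with a median of 0.564.

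**Figure D5:**
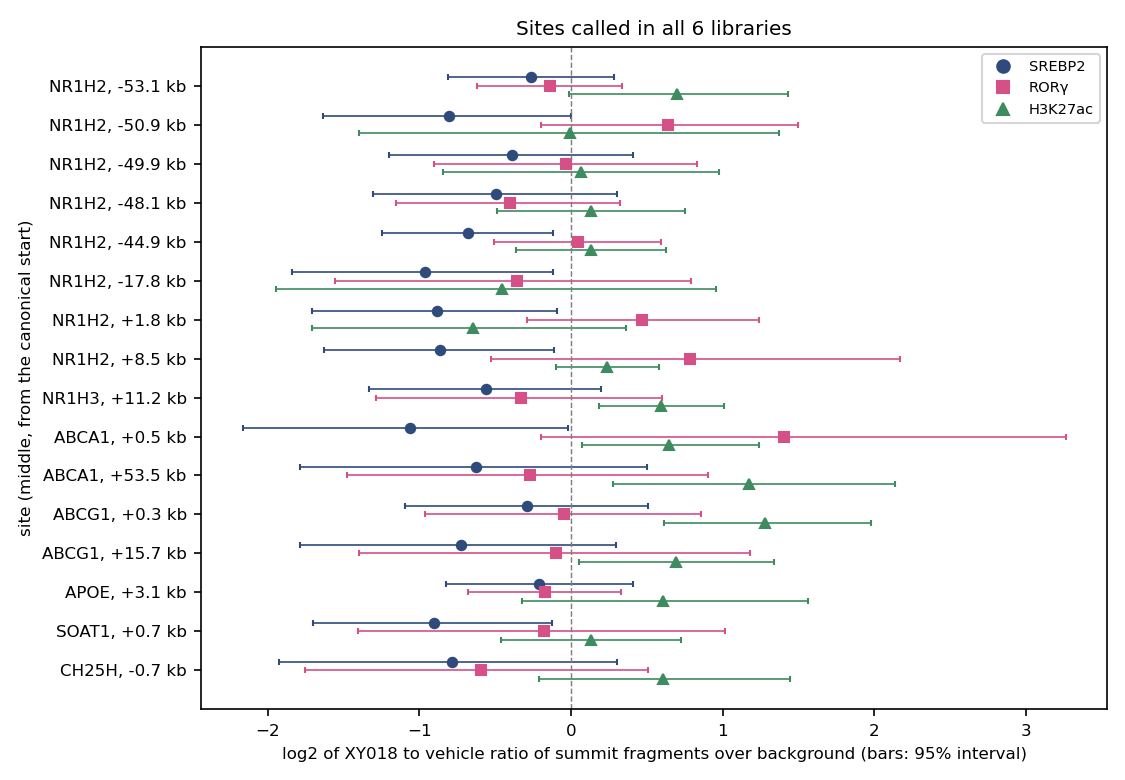
Log2 ratio of XY018 to vehicle summit fragments over background (x axis) at the 16 sites with regions in all 6 libraries (y axis, named by gene and distance of the site's middle from the canonical start). Points are the 3 antibodies and bars are 95% intervals. All 16 SREBP2 points lie below 0, RORγ points lie on both sides, and 13 H3K27ac points lie above 0.

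Within 10 kb of the 7 genes, SREBP2 regions numbered 57 with vehicle and 29 with XY018. The second was 50.9% of the first (31.4% to 80.9%), beside 59.3% over the whole lists. RORγ regions numbered 74 and 52, or 70.3% (48.3% to 102%), beside 77.7%, and H3K27ac regions 58 and 64, or 110% (76.1% to 160%), beside 111%. For each antibody the value of the whole list lay within the interval of these genes.

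Of the vehicle regions, 27 of 57 SREBP2 regions overlapped one with XY018, or 47.4% (34% to 61%), beside 39.8% of all. For RORγ it was 33 of 74, or 44.6% (33% to 56.6%), beside 36.4%, and for H3K27ac 40 of 58, or 69% (55.5% to 80.5%), beside 69.3%. The shares were also taken by strength. Of SREBP2 regions of 20 or more fragments 18 of 18 overlapped, beside 95.2% of all such regions, and of those under 10 fragments 3 of 28, beside 7.94%. For RORγ these were 11 of 11, beside 99.9%, and 14 of 54, beside 21.3%. For H3K27ac they were 22 of 24, beside 96.3%, and 1 of 9, beside 30%. The 2 H3K27ac regions of that strength without a listed counterpart were the exonic sites of ABCG1 and NR1H2 described above.

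The sites of all 6 libraries were rich in G and C. In 15 summit windows, the 3′ site of APOE left aside, the share of G and C ran from 68.2% to 84.6%, against a median of 64.2% over all SREBP2 vehicle regions. A sterol regulatory element lay in 1 of the 15, upstream of NR1H2, beside 2.42% of all SREBP2 windows of 201 bases. An E-box lay in 1, at the POLD1 promoter, beside 4.72%. The LXR element and the RORE core lay in none, beside 3.11% and 0.142%.

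The wider pathway was described from 29 further genes, namely LXR partners, other exporters, lipoprotein factors, esterification and oxysterol enzymes and other LXR targets. SREBP2 regions lay on 23 of their promoters with vehicle and 19 with XY018, RORγ regions on 19 and 19, and H3K27ac regions on 20 and 22. The shares of all protein-coding genes are those given above for the 7 genes. SREBP2 was lower with XY018 at all 18 of those with overlapping regions, with a median ratio of 0.558, beside 98% of all promoters and a median of 0.621. RORγ was lower at 8 of 17, with a median of 1.11, beside 55.2% and 0.968. H3K27ac was lower at 5 of 20, with a median of 1.2, beside 19.5% and 1.27.
Among these genes the lowest SREBP2 ratio was that of PLTP, a phospholipid transfer protein, at 0.339 (0.158 to 0.681), from 30 to 12 fragments. The highest was that of MYLIP, an LXR target that degrades the LDL receptor, at 0.937 (0.544 to 1.62), from 28 to 31. For RORγ the lowest was CYP27A1, the sterol 27-hydroxylase, at 0.537 (0.282 to 0.985), and the highest was ABCA7, at 2.11 (0.973 to 4.85). For H3K27ac the lowest was LCAT, which esterifies cholesterol in plasma, at 0.568 (0.275 to 1.12), and the highest NCEH1, a cholesterol ester hydrolase, at 2.45 (1.44 to 4.32).

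The genes nearest in pattern were sought among 9108 genes with 1 promoter window marked in all 6 libraries, by the Euclidean distance of log2 pileup over background across the libraries. TNFRSF14 was nearest to ABCA1, at 0.49 log2 units. TTLL11 and FHOD3 were nearest to ABCG1, at 0.295 and 0.333. CARNS1 and KIAA1549 were nearest to NR1H2, at 0.207 and 0.324, MAPRE3 and TMEM120A to SOAT1, at 0.318 and 0.34, and IRF7 and GIPC3 to CH25H, at 0.271 and 0.39. The NR1H2 window lay at its upstream starts. Its H3K27ac summits came from neighbouring sites, with 46 fragments with vehicle and 71 with XY018. Each of those sites held equal fragments under both treatments, so that difference is not a change at a single place.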

How the data were processed

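Peak lists of 6 libraries were used. The study's methods name BWA, the hg19 build, unique deduplicated tags and MACS for peaks, whereas the submitters' notes list Bowtie2 and MACS2 2.1.0. The authors deposited a fold enrichment (a ratio), −log10 p and −log10 q values and a display score, which was not used. Peak numbers with gaps show that both H3K27ac lists are partial. GENCODE 44 lifted to GRCh37 gave genes.

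From fold and −log10 p, summit fragments and local background were solved with the Poisson tail that MACS uses. From 99.99% to 100% of regions in a list gave whole numbers, within 5% of the step between neighbours, and all simulated peaks were recovered. Promoter ratios used the overlapping pair of regions with the highest summed pileup. Intervals were exact Poisson or exact binomial (Clopper-Pearson) at 95%. Analyses used Python 3.11.15 with scipy 1.17.1. The 7 genes, the wider lists and the tests were chosen with earlier results of these data known. All 7 genes were named. Of the wider lists, the lowest and highest ratio with at least 20 fragments in both libraries together were named. RefSeq promoters came from GRCh38.p14. The repeat count and the cell type genes were added after the data were seen. A few neighbouring or similar genes and 1 sequence are not reported here.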

Additional observations from a re-analysis of the deposited data

Results flagged for a closer look

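At the ABCA1 promoter SREBP2 and H3K27ac differed in direction, their XY018 to vehicle ratios being 0.478 and 1.57. Against the median promoter these were 0.771 and 1.23, and 16.3% and 83.3% of promoters had a lower ratio. The SREBP2 ratio was thus below, and the H3K27ac ratio above, those of most promoters. Neither passed 1.5-fold against the median promoter, and whether ABCA1 differs from other promoters was not tested. At the ABCG1 promoter the ratios were 0.817 and 2.43, but the SREBP2 interval, 0.468 to 1.42, included 1, and against the median promoter the SREBP2 ratio was 1.32, so opposite directions are not shown there. Both were singled out because the SREBP2 ratio was below 1 and the H3K27ac ratio above it with an interval that excluded 1. With 1 library a group, no test of this difference was made. Over all promoters the medians were 0.621 for SREBP2 and 1.27 for H3K27ac, in the same opposite directions.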

How the results depend on the processing

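Of 155 values recomputed under another setting, 133 stayed within the bounds set for them, 22 moved, and no ratio whose interval excluded 1 changed direction. Within 50 kb of the genes, regions numbered 130 (vehicle) and 70 (XY018) for SREBP2, 155 and 119 for RORγ, and 116 and 128 for H3K27ac. Within the genes alone they numbered 33 and 16 for SREBP2, 45 and 32 for RORγ, and 41 and 41 for H3K27ac. With q of at most 0.01, RORγ regions numbered 36 and 27. With q of at most 1e-05 they numbered 22 and 19, and SREBP2 regions 28 and 20. The share of vehicle regions kept was then 67.9% for SREBP2 and 77.3% for RORγ. With summits required within 100 bp, the kept share was 31.1% for RORγ and 51.7% for H3K27ac. Scaled to the median promoter, the median ratio of the genes was 0.871 for SREBP2 and 1.19 for H3K27ac. SREBP2 fragment lengths were 185 bp with vehicle and 205 bp with XY018. Divided by tags per kb instead of background, SREBP2 ratios were 0.53 at ABCA1, 0.599 at NR1H2 and 0.592 at SOAT1. Their intervals on the background scale ended at 0.985, 0.938 and 0.915, and none was computed per tag. That they exclude 1 is thus shown on the background scale only. Fewer regions, wider or narrower windows and the scaling are part of how these settings are built. Promoter counts and the ratios of single genes stayed within their bounds wherever an alternative gave a value. With q of at most 0.01, RORγ promoter regions with vehicle lay on 5 genes instead of 6. That of ABCA1 was lost, so its RORγ ratio has no value at either q setting. With q of at most 1e-05 the RORγ ratio of SOAT1 had none either. No paired analysis was possible because each group held 1 library. Depth limits sites of under 10 fragments most, where an interval spans several-fold.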
